A study of Mus musculus with 24 samples.

Results

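The Ifit genes (interferon-induced proteins with tetratricopeptide repeats) were followed across the pleural fluid and pleural tumors of mice with malignant pleural effusion. Rows were taken by gene name, which gave 6 members of the 54505 genes in the table: Ifit1, Ifit2, Ifit3, Ifit3b, Ifit1bl1 and Ifit1bl2. RNA had been sequenced from 24 libraries in 8 groups of 3. C57BL/6 mice carried Lewis lung carcinoma, a mouse lung cancer line, in the pleural cavity, and every group shared that tumor and strain. On day 11 each mouse received, into the pleural cavity, phosphate-buffered saline (PBS), 30 µg of the anti-PD-L1 antibody 10F.9G2, LNP-CDN, or both agents together. LNP-CDN was 1 µg of cGAMP, a cyclic dinucleotide that activates the receptor STING, in lipid nanoparticles. No group received empty nanoparticles or free cGAMP, so the effects of the carrier and of cGAMP cannot be told apart. Mice were killed on day 13. Cells pelleted from the fluid and cells of digested tumors were sequenced after red cells had been lysed. The labels count 3 mice for a treatment and give no link between fluid and tumor libraries. Ages and sexes are not given in the labels used here. These are whole cell pellets, so that fewer cells of a type and less RNA per cell cannot be told apart.

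Type I interferon binds its receptor and, through the kinases Jak1 and Tyk2, activates the transcription factor complex ISGF3, of which Irf9 is a part. ISGF3 binds the interferon-stimulated response element (ISRE) in the promoters of its target genes, and Irf3, which STING activates through Tbk1, can bind ISRE-like sites of some Ifit genes without interferon. IFIT proteins are cytoplasmic RNA-binding proteins: Ifit1 holds capped RNA that lacks the methyl marks of host messages and blocks its translation, Ifit2 limits virus growth in mouse neurons, and in humans IFIT3 stabilizes IFIT1. Ifit3b is a close copy of Ifit3, and Ifit1bl1 and Ifit1bl2 are Ifit1-like genes of the mouse.

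All 6 members lie side by side on chromosome 19, within 99316 bases at chr19:34550694-34650009 (GRCm38). The table's coordinates equal those of the GENCODE M21 annotation for 5 of the 6 members, and those of Ifit1bl1 differ from it. In order of position they run Ifit2 (ENSMUSG00000045932, plus strand, start 34550694), Ifit3 (ENSMUSG00000074896, plus strand, start 34583531), Ifit1bl1 (ENSMUSG00000079339, minus strand, start 34601968), Ifit3b (ENSMUSG00000062488, plus strand, start 34607970), Ifit1bl2 (ENSMUSG00000067297, minus strand, start 34640743) and Ifit1 (ENSMUSG00000034459, plus strand, start 34640871). Ifit1bl2 and Ifit1 are transcribed away from each other, with 127 bases between their starts. No other row of the table overlaps a member.

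The upstream sequences below come from RefSeq (GRCm38.p6) and are shown because members that moved together could be compared for the ISRE, whose core was searched on both strands as GAAA, any 2 bases, GAAA. Capitals mark the matches, which on the opposite strand read TTTC, any 2 bases, TTTC. Sequences run 5′ to 3′ on the strand of the gene, each ends at the base before the RefSeq start, and the last is the interval between Ifit1bl2 and Ifit1 on the plus strand.
Ifit3 (chr19:34583279-34583528, plus): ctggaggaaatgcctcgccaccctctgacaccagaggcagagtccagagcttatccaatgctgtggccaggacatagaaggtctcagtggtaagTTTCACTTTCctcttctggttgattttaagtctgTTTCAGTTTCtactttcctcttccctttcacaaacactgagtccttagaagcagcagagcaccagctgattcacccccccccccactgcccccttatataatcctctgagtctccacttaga
Ifit3b (chr19:34607707-34607956, plus): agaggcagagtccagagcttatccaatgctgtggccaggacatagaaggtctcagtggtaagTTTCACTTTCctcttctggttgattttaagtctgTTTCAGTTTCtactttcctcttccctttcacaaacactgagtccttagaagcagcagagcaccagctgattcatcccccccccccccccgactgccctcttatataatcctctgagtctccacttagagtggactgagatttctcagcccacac
Ifit1bl1 (chr19:34601969-34602218, minus): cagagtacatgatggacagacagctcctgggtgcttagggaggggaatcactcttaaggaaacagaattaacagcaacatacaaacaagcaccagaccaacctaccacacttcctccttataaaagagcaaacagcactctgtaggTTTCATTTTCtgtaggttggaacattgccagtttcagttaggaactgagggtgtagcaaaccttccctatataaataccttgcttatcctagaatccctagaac
Ifit2 (chr19:34550444-34550693, plus): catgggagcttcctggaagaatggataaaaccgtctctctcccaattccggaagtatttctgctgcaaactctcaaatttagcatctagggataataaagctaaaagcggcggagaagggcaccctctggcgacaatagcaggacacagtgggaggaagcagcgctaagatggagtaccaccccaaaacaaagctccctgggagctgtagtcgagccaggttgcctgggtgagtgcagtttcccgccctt
Ifit1bl2 to Ifit1 (chr19:34640744-34640870, plus): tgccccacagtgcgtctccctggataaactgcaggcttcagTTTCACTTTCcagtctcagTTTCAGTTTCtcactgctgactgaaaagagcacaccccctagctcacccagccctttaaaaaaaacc

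All 6 members matched a RefSeq promoter. In the 250 bases before the start, Ifit3, Ifit3b, Ifit1 and Ifit1bl2 each held 2 ISRE cores, Ifit1bl1 held 1 and Ifit2 held 0. These counts are for the RefSeq start nearest the start in the table. RefSeq gives a second start for 3 members, with 0 ISRE cores for Ifit1bl2 (start 34629811), 1 for Ifit1bl1 and 0 for Ifit2. Of 32851 RefSeq promoters of the same length, 2.98% held at least 1 such core and 0.18% held at least 2. Ifit1 and Ifit1bl2 share their pair of cores, at chr19:34640785-34640794 and chr19:34640804-34640813, which lie 104 to 95 and 85 to 76 bases before the RefSeq start of Ifit1. Ifit3 and Ifit3b carry the same 10 letters and the same 12 flanking bases on each side at both of their cores, and their upstream sequences aligned with 217 of 218 bases identical. The Ifit2 window held 1 match to the core of the gamma-activated site (TTC, any 3 bases, GAA, on both strands, with no ISRE core in that window to overlap), which 7.02% of promoters hold. These matches describe letters only, and no binding was measured.

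**Figure D1:**
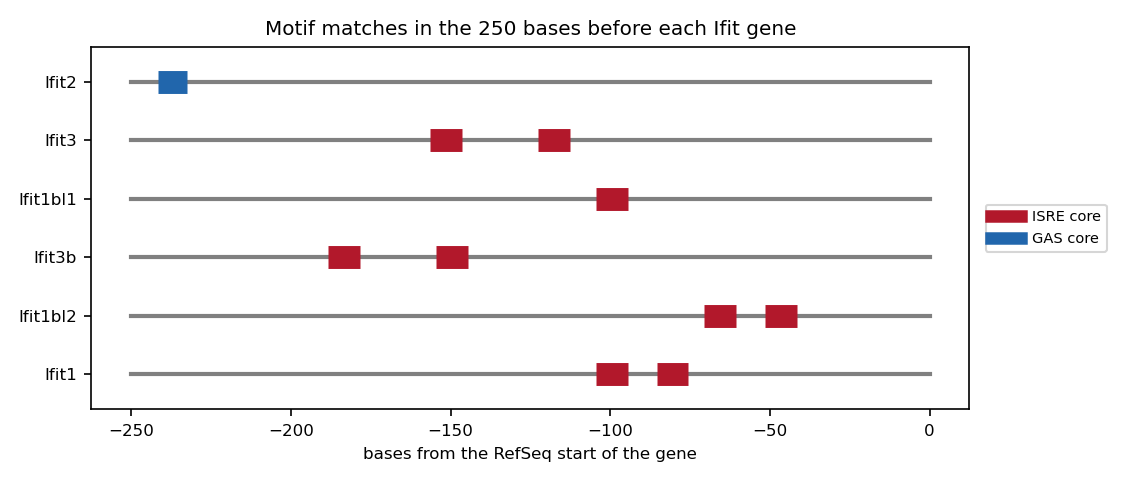
Positions of ISRE and GAS core matches in the 250 bases before the RefSeq start of each Ifit member (horizontal axis, bases from the start), 1 line per gene. Ifit3, Ifit3b, Ifit1 and Ifit1bl2 show 2 ISRE cores, Ifit1bl1 shows 1, and Ifit2 shows 1 GAS core.

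Copies this close can trade reads. The longest transcripts of Ifit3 and Ifit3b were identical at 1663 of 1697 aligned bases (98.0%), and 31.7% of the 100-base windows of Ifit3 also occurred in Ifit3b (27.4% of those of Ifit3b in Ifit3). Their separate values are therefore uncertain. The share of windows found in another member was 3.29% for Ifit1, 2.91% for Ifit1bl2, 0.51% for Ifit1bl1 and 0 for Ifit2.

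Levels are given in FPKM (fragments scaled by gene length and by library depth), which allows genes to be compared per length. Libraries held 14584438 to 26888253 recovered reads, and replicates are listed in the order 1, 2, 3. Differences are log2 differences of FPKM + 1, which understate the change of low genes, with their standard errors and Benjamini-Hochberg adjusted p from limma. A member is called changed when the adjusted p is under 0.05. With 3 against 3 the smallest exact permutation p is 0.1, so the calls rest on a spread estimated over all groups and genes, and they describe the spread between 3 libraries per group.

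In pleural fluid, LNP-CDN raised every Ifit member. Ifit3 lay at 10.4, 8.02 and 9.00 FPKM in the PBS libraries and at 172, 339 and 185 with LNP-CDN. Ifit2 lay at 6.18, 6.39 and 5.80 with PBS and at 111, 204 and 125 with LNP-CDN. Ifit1 lay at 12.1, 9.87 and 13.1 with PBS and at 82.3, 152 and 95.3 with LNP-CDN. For each of these 3 genes the lowest LNP-CDN library was above the highest PBS library, and replicate 2 was the highest LNP-CDN library. Ifit1bl1 went from 1.85, 2.99 and 2.41 FPKM with PBS to 39.9, 124 and 36.3 with LNP-CDN. Ifit3b went from 1.51, 1.41 and 1.86 to 31.6, 66.0 and 26.9. Ifit1bl2, the lowest member, went from 0.703, 1.32 and 1.23 to 5.47, 6.64 and 2.75. Again the groups did not overlap, and replicate 2 of LNP-CDN was the highest library for these 3 genes as well.

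On the log2 scale the differences between LNP-CDN and PBS in fluid were 4.46 ± 0.35 for Ifit3 (adjusted p = 3.97e-05), 4.32 ± 0.42 for Ifit2 (0.000114), 4.09 ± 0.39 for Ifit1bl1 (0.000103), 3.93 ± 0.30 for Ifit3b (3.63e-05), 3.08 ± 0.27 for Ifit1 (6.35e-05) and 1.46 ± 0.26 for Ifit1bl2 (0.00303). Of the 6 members, 6 were called higher, where 26% of the 13518 genes tested were called in either direction and 13.7% were called higher, and 6 stayed called without any 1 of the libraries, replicate 2 of LNP-CDN included. The groups did not overlap, with LNP-CDN higher, for 6 of 6 members and for 23.9% of all genes tested. Ranked from the largest increase, Ifit3, Ifit2, Ifit1bl1 and Ifit3b were the first 4 of the 13518 genes, Ifit1 was number 12 and Ifit1bl2 number 152. As ratios of mean FPKM the increases were 27.7-fold for Ifit1bl1, 26.1-fold for Ifit3b, 25.4-fold for Ifit3, 23.97-fold for Ifit2, 9.38-fold for Ifit1 and 4.57-fold for Ifit1bl2. Ifit1bl2 passed the filter on low values (an FPKM of 1 or more in 3 or more libraries) only through libraries with LNP-CDN. Summed over the 6 members, the family went from 32.1 ± 1.83 FPKM to 602 ± 252 (mean ± SD, n = 3). In the same contrast the summed neutrophil markers lay at 3265 to 5129 FPKM with PBS and at 815 to 2830 with LNP-CDN, summed B cell markers at 39.4 to 80.4 and 3.62 to 6.60, and summed macrophage markers at 2803 to 3236 and 3426 to 4623. Their part in the Ifit result was not tested.

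**Figure D2:**
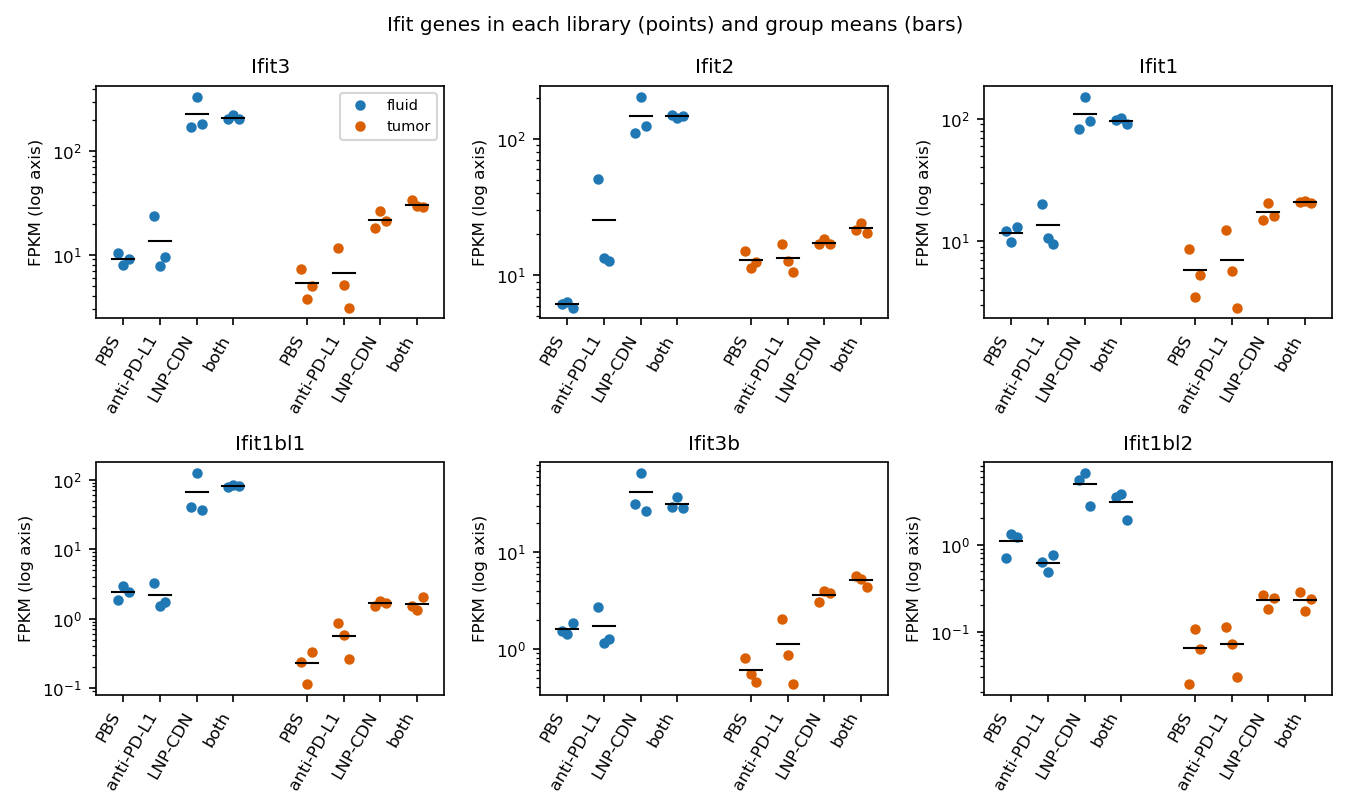
FPKM of each Ifit member in each of the 24 libraries (log axis), by tissue and treatment, with points for libraries and bars for group means. The fluid libraries with LNP-CDN, alone or combined, stand above all other libraries for all 6 members.

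The combination of LNP-CDN and anti-PD-L1 gave fluid levels close to those of LNP-CDN alone. Ifit3 lay at 205, 225 and 206 FPKM, Ifit2 at 150.5, 142 and 147, and Ifit1 at 97.5, 101 and 90.7. Ifit1bl1 lay at 77.5, 84.2 and 80.8, Ifit3b at 29.5, 37.3 and 28.6, and Ifit1bl2 at 3.56, 3.76 and 1.92. Every one of these ranges overlapped that of LNP-CDN alone, and the combination libraries lay nearer to each other. The coefficient of variation over 3 libraries was 2.75 to 32.7% across members with the combination and 33.6 to 74.6% with LNP-CDN alone.

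Against PBS, 6 of 6 members were called higher with the combination, beside 15.6% of all genes (30.1% in either direction). The differences were 4.60 ± 0.39 for Ifit1bl1, 4.40 ± 0.35 for Ifit3, 4.37 ± 0.42 for Ifit2, 3.65 ± 0.30 for Ifit3b and 2.95 ± 0.27 for Ifit1 on the log2 scale. Ifit1bl2 differed by 0.95 ± 0.26 (limma, adjusted p = 0.0206), and its call was lost without combination replicate 2 (adjusted p = 0.0803). Against anti-PD-L1 alone, 6 of 6 members were also called higher, beside 18.4% of all genes (37.3% in either direction), with differences from 1.30 for Ifit1bl2 to 4.73 for Ifit1bl1. The groups did not overlap for 6 of 6 members in either comparison, beside 27.5 and 24.5% of all genes. These comparisons share the combination libraries. Ifit1bl2 passed the filter only through libraries with LNP-CDN, so its place in these counts depended on the group found higher.

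Between the combination and LNP-CDN alone in fluid, limma called 0 of 6 members, and 0% of all genes. At an unadjusted p under 0.05 the count was also 0 of 6, and limma-voom on recovered reads called 0. The 95% intervals of the log2 difference, combination minus LNP-CDN, ran from -0.73 to 0.46 for Ifit1, -0.88 to 0.98 for Ifit2, -0.84 to 0.71 for Ifit3, -0.94 to 0.39 for Ifit3b, -0.35 to 1.36 for Ifit1bl1 and -1.10 to 0.07 for Ifit1bl2. With 3 libraries a group, differences within these intervals are not excluded. Taking the 6 fluid libraries with LNP-CDN against the 6 without, all 6 members were called higher, beside 23% of all genes (45.5% in either direction), and all 6 had no overlap, beside 11.1%. That difference was 4.41 ± 0.27 for Ifit1bl1, 4.24 ± 0.25 for Ifit3, 3.78 ± 0.21 for Ifit3b, 3.55 ± 0.30 for Ifit2, 2.95 ± 0.19 for Ifit1 and 1.38 ± 0.19 for Ifit1bl2. The place of Ifit1bl2 in this count also depended on the group found higher, through the filter.

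With anti-PD-L1 alone, Ifit2 was the only member called in fluid. A count of 1 of 6 is near the share of all genes called in either direction, and the call was not stable. Ifit2 lay at 50.6, 13.3 and 12.7 FPKM, above all 3 PBS libraries, with replicate 1 far above the others. The log2 difference from PBS was 1.60 ± 0.42 (limma, adjusted p = 0.0332), so that 1 of 6 members was called, beside 13% of all genes in either direction and 5.47% called higher. The groups did not overlap for Ifit2, as for 17.4% of all genes. Leaving out anti-PD-L1 replicate 1 gave 0.98 ± 0.20 (adjusted p = 0.0159), whereas leaving out any 1 of the PBS libraries lost the call (adjusted p from 0.0743 to 0.0981), as did leaving out combination replicate 1. The call was also lost with no filter on low values and with only the 6 libraries compared in the fit.

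The other members overlapped with PBS under anti-PD-L1 and were not called. Ifit3 lay at 23.8, 7.81 and 9.46 FPKM, Ifit1 at 20.3, 10.6 and 9.49, and Ifit3b at 2.71, 1.15 and 1.25. Ifit1bl1 lay at 3.27, 1.51 and 1.74 and Ifit1bl2 at 0.623, 0.481 and 0.756. Replicate 1 was the highest library for 5 of the 6 members. The 95% intervals of the log2 difference from PBS were -0.47 to 0.71 for Ifit1, -0.39 to 1.16 for Ifit3, -0.65 to 0.68 for Ifit3b, -0.99 to 0.72 for Ifit1bl1 and -0.94 to 0.23 for Ifit1bl2.

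The anti-PD-L1 fluid libraries stood apart in a further way. Ddx3y, a gene on the Y chromosome, lay at 21.6 to 23.6 FPKM in them whereas its highest value among the other fluid libraries was 0.0283. The combination libraries, which received the same antibody, were at no more than 0.0111. The anti-PD-L1 group and a high Ddx3y therefore cannot be told apart in fluid, in the comparison with PBS and in that of the combination with anti-PD-L1. Summed neutrophil markers were 626 to 1071 FPKM there and 3265 to 5129 with PBS. All 6 neutrophil markers, 5 of 5 B cell markers and 5 of 5 NK cell markers were lower than with PBS, while 0 of 7 macrophage markers rose and 1 fell. Over all genes tested, 13% were called in either direction in that comparison. The part of these shifts in the Ifit2 difference was not tested.

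**Figure D3:**
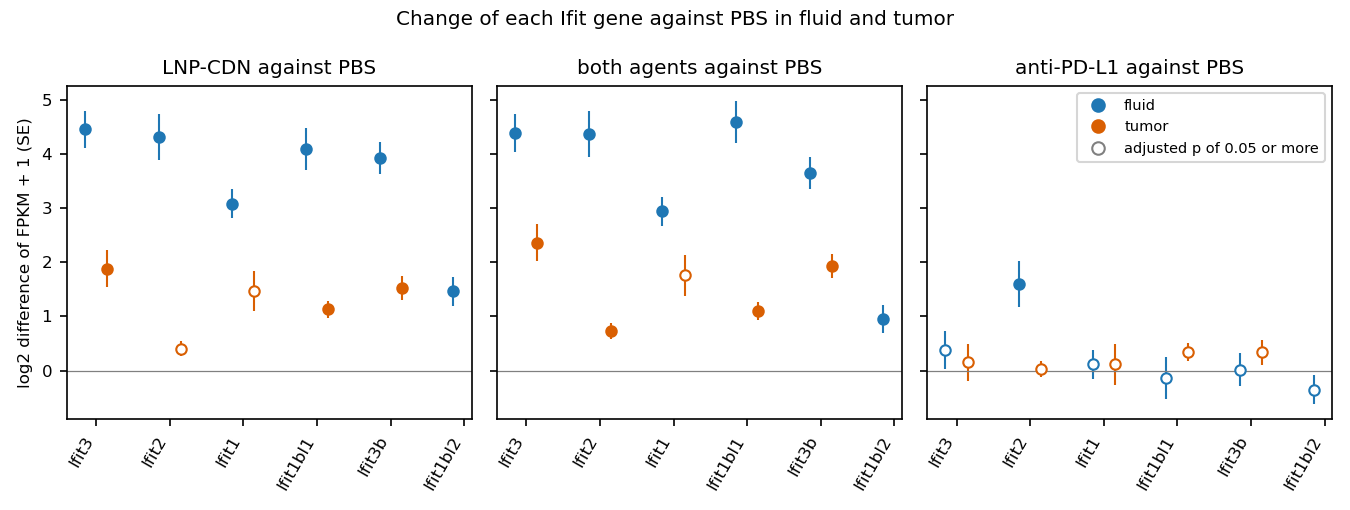
Log2 difference of FPKM + 1 from PBS (vertical axis, points, with bars of 1 SE) for each Ifit member in fluid and tumor, for LNP-CDN, both agents and anti-PD-L1. Open points have an adjusted p of 0.05 or more, and Ifit1bl2 was not tested in tumor. In fluid all 6 members are called with LNP-CDN and with both agents, from 0.95 to 4.60, and with anti-PD-L1 the called member is Ifit2 at 1.60.

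In tumors Ifit3, Ifit3b and Ifit1bl1 rose with LNP-CDN, and Ifit2, the highest member with PBS, was not called. Ifit2 lay at 15.1, 11.4 and 12.5 FPKM with PBS and at 16.9, 18.4 and 16.9 with LNP-CDN. Ifit3 lay at 7.20, 3.69 and 4.93 with PBS and at 18.1, 26.3 and 21.1 with LNP-CDN. Ifit1 lay at 8.66, 3.50 and 5.25 and at 14.9, 20.4 and 16.1. In all 3 genes the LNP-CDN libraries were above the PBS libraries, narrowly so for Ifit2. Ifit3b went from 0.793, 0.546 and 0.454 FPKM to 3.06, 3.94 and 3.82. Ifit1bl1 went from 0.239, 0.114 and 0.329 to 1.51, 1.83 and 1.71. Ifit1bl2 stayed under an FPKM of 0.3 in every tumor library, with 2 to 12 reads without LNP-CDN and 15 to 27 with it, and was not tested there.

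Of the 5 members tested in tumors, 3 were called higher with LNP-CDN, beside 1.89% of the 13173 genes tested (3.36% in either direction). These were Ifit3 with a log2 difference of 1.88 ± 0.34 (limma, adjusted p = 0.0203), Ifit3b with 1.53 ± 0.22 (0.0125) and Ifit1bl1 with 1.13 ± 0.16 (0.0125). Ifit1 differed by 1.47 ± 0.37 (0.0561) and Ifit2 by 0.40 ± 0.14 (0.141), and neither was called. Ifit3b and Ifit1bl1 passed the filter only through libraries with LNP-CDN. The groups did not overlap for 6 of 6 members, Ifit1bl2 included, as for 13.3% of all genes tested, a share that leaves out Ifit1bl2. Without tumor LNP-CDN replicate 3, 0 members were called: the adjusted p was 0.0559 for Ifit3b and Ifit1bl1 and 0.0756 for Ifit3, and limma-voom on all libraries called 4. As ratios of mean FPKM the increases were 7.41-fold for Ifit1bl1, 6.03-fold for Ifit3b, 4.13-fold for Ifit3, 2.95-fold for Ifit1 and 1.34-fold for Ifit2.

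With the combination, tumor levels were the highest of the tumor groups for most members. Ifit3 lay at 33.6, 29.3 and 28.9 FPKM, Ifit2 at 21.6, 24.3 and 20.5, and Ifit1 at 20.9, 21.3 and 20.5. Ifit3b lay at 5.72, 5.24 and 4.35, Ifit1bl1 at 1.50, 1.33 and 2.07 and Ifit1bl2 at 0.288, 0.171 and 0.239. Every combination library was above every LNP-CDN library for Ifit1, Ifit2, Ifit3 and Ifit3b, 4 of 6 members. The share was 8.4% over the genes tested, which leave out Ifit1bl2. Limma called 0 of the 5 tested and 0% of all genes in that contrast, 1 of 5 had an unadjusted p under 0.05 (Ifit2), and limma-voom called 0. The 95% intervals of the log2 difference, combination minus LNP-CDN, were 0.01 to 0.64 for Ifit2, -0.54 to 1.10 for Ifit1, -0.26 to 1.23 for Ifit3, -0.09 to 0.90 for Ifit3b and -0.40 to 0.33 for Ifit1bl1.

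Against PBS in tumors, the combination was called higher for 4 of 5 members, beside 0.881% of all genes (1.18% in either direction): Ifit3 by 2.37 ± 0.34 (limma, adjusted p = 0.00781), Ifit3b by 1.93 ± 0.22 (0.00383), Ifit1bl1 by 1.10 ± 0.16 (0.0107) and Ifit2 by 0.73 ± 0.14 (0.0336). Ifit1 differed by 1.76 ± 0.37 (0.0506). The count fell to 1 without combination replicate 1 or without PBS replicate 2, and to 2 without combination replicate 3. Against anti-PD-L1 alone the same count was 4 of 5, beside 1.16% of all genes (1.55% in either direction), and it fell to 0 without combination replicate 1 and to 1 without combination replicate 3. With only the 6 libraries compared in the fit that count was 0. The groups of that comparison also differed in Ddx3y, a gene on the Y chromosome, as given below. In both comparisons 6 of 6 members had no overlap, beside 11.3 and 13.2% of the genes tested, which leave out Ifit1bl2.

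Over the 6 tumor libraries with LNP-CDN against the 6 without, 5 of 5 members tested were called higher, beside 6.57% of all genes (11.7% in either direction). Ifit3b and Ifit1bl1 passed the filter only through libraries with LNP-CDN, so their place in this count depended on the group found higher. The combination counts above share this limit. The differences were 2.05 ± 0.24 for Ifit3 (limma, adjusted p = 0.000897), 1.56 ± 0.26 for Ifit1 (0.00500), 1.56 ± 0.16 for Ifit3b (0.000609), 0.94 ± 0.12 for Ifit1bl1 (0.00114) and 0.55 ± 0.10 for Ifit2 (0.00724). With no filter on low values Ifit1bl2 differed by 0.20 ± 0.03 (adjusted p = 0.0169). For 5 of 6 members the 6 libraries with LNP-CDN lay above the 6 without, beside 3.42% of the genes tested, which leave out Ifit1bl2. The exception was Ifit2, whose lowest value with LNP-CDN (16.87 FPKM) was below its highest without (16.95).

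No tumor member was called with anti-PD-L1 alone. Ifit3 lay at 11.7, 5.06 and 3.07 FPKM, Ifit2 at 16.9, 12.7 and 10.6 and Ifit1 at 12.2, 5.73 and 2.85, and every member overlapped with PBS. Replicate 1 was highest and replicate 3 lowest for all 6 members. Limma called 0 of 5 members and 0% of all genes, 0 of 5 had an unadjusted p under 0.05, and limma-voom called 0. Ddx3y lay at 3.27 to 3.44 FPKM in these libraries and at no more than 0.00774 in the combination tumors. It reached 3.55 in a PBS tumor library, while the highest PBS fluid library was at 0.0253. The anti-PD-L1 group and a high Ddx3y therefore cannot be told apart in the tumor comparison of the combination with anti-PD-L1. Libraries with LNP-CDN reached at most 0.0283 FPKM of Ddx3y in fluid and 0.00821 in tumor. In the comparisons with against without LNP-CDN, every library with a high Ddx3y was therefore one without LNP-CDN.

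Most members differed in level between fluid and tumor, as most genes tested did, and the response to LNP-CDN differed in size. With PBS the 6 members summed to 32.1 ± 1.83 FPKM in fluid and 24.9 ± 6.44 in tumor. These sums overlapped, at 30.0 to 33.4 in fluid and 19.3 to 32.0 in tumor. With PBS 5 of 6 members were called different between the tissues, beside 74.8% of all 15222 genes tested. Ifit2 was higher in tumor, as 37% of all genes were, by 0.97 ± 0.33 (limma, adjusted p = 0.0136). Ifit1 was lower there by a log2 difference of -0.96 ± 0.35 (0.0178), and Ifit3b, Ifit1bl1 and Ifit1bl2 were lower as well, at -0.70, -1.47 and -0.96, beside 37.9% of all genes. Ifit3 differed by -0.73 (0.0820). Leaving out fluid PBS replicate 3 or tumor PBS replicate 2, or scaling by total reads, brought this to 3. With LNP-CDN all 6 members were lower in tumor, beside 38.8% of all genes (76.3% in either direction), from -2.21 for Ifit1bl2 to -4.43 for Ifit1bl1, and the family sums were 61.8 ± 8.30 and 602 ± 252 FPKM. With the combination all 6 were again lower in tumor, beside 39.2% of all genes (76.4% in either direction), and the sums were 80.6 ± 3.65 and 571 ± 20.4. With anti-PD-L1 alone Ifit1, Ifit3, Ifit1bl1 and Ifit1bl2 were called lower in tumor, 4 of 6, beside 36.1% of all genes (70.7% in either direction). That count was 1 without fluid anti-PD-L1 replicate 1, 2 without tumor anti-PD-L1 replicate 3, and 2 with scaling by total reads. In the fit of both tissues Ifit1bl2 passed the filter on low values only through fluid libraries. Its place in these tissue counts therefore depended on the tissue found higher.

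The change with LNP-CDN against PBS was smaller in tumor than in fluid for all 6 members, beside 7.4% of all genes called in that direction (15.3% in either). The log2 change in tumor minus that in fluid was -3.92 ± 0.47 for Ifit2 (limma, adjusted p = 5.14e-05), -2.96 ± 0.44 for Ifit1bl1 (0.000260), -2.58 ± 0.52 for Ifit3 (0.00292), -2.40 ± 0.40 for Ifit3b (0.000614), -1.61 ± 0.49 for Ifit1 (0.0339) and -1.26 ± 0.29 for Ifit1bl2 (0.00648). Here too Ifit1bl2 passed the filter only through fluid libraries. The Ifit1 call was lost with 1 library left out in 7 cases (adjusted p up to 0.0944) and with a pseudocount of 0.1 (0.0707). With limma-voom, which works on reads and does not compress low values, 3 of 6 were called, and Ifit3b (-1.97, adjusted p = 0.149), Ifit1bl1 (-1.60, 0.488) and Ifit1bl2 (-0.22, 0.918) were not. For the combination 4 of 6 members were called with a smaller change in tumor, beside 7.17% of all genes (15% in either direction), namely Ifit2 at -3.64 ± 0.47, Ifit1bl1 at -3.50 ± 0.44, Ifit3 at -2.03 ± 0.52 and Ifit3b at -1.72 ± 0.40. Limma-voom called 2 there. For anti-PD-L1 limma called 0 of 6, beside 5.31% of all genes in either direction, with 1 of 6 (Ifit2, -1.57 ± 0.47, adjusted p = 0.0587) at an unadjusted p under 0.05, and limma-voom called 0. The Ifit2 difference was called when fluid anti-PD-L1 replicate 1 was left out (-0.95, adjusted p = 0.0340).

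Ordered by mean FPKM over the 8 groups, the 2 fluid groups with LNP-CDN came first for all 6 members, overlapped with each other, and did not overlap with the third group. For Ifit1, Ifit3 and Ifit3b the combination and LNP-CDN tumors followed, at 20.9 ± 0.413 and 17.1 ± 2.87 FPKM for Ifit1, and the last 4 groups, fluid and tumor without LNP-CDN, overlapped from neighbour to neighbour. For Ifit1bl1 and Ifit1bl2 the fluid groups without LNP-CDN stood above all tumor groups by mean, at 2.42 ± 0.569 and 1.08 ± 0.333 FPKM with PBS. Ifit2 had its lowest group in PBS fluid, at 6.12 ± 0.301 FPKM, which did not overlap with the next, PBS tumor at 13.0 ± 1.88.

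The cells of the 2 tissues differed in their markers. Summed macrophage markers (Adgre1, Csf1r, C1qa and others) were 2605 to 6187 FPKM in fluid and 314 to 444 in tumor, and monocyte markers 762 to 1979 and 60.7 to 87.5. With PBS, 7 of 7 macrophage, 5 of 5 monocyte, 6 of 6 neutrophil, 6 of 6 T cell, 5 of 5 B cell and 5 of 5 NK cell markers were lower in tumor. Fibroblast markers, 164 to 206 FPKM in tumor and 29.9 to 61.6 in fluid, were higher in tumor for 4 of 5, and epithelial markers, 188 to 260 and 25.9 to 77.0, for 2 of 4, with 2 lower. Over all genes tested with PBS, 37.9% were called lower in tumor and 37% higher. No marker of these lists was at 0 throughout a group. Within fluid, LNP-CDN against PBS raised 3 of 7 macrophage, 2 of 5 monocyte and 1 of 5 NK cell markers. It lowered 5 of 5 B cell, 2 of 6 neutrophil, 1 of 5 monocyte, 1 of 6 T cell and 1 of 4 epithelial markers, and limma called 0 of 5 fibroblast markers (1 of 5 at an unadjusted p under 0.05). Over all genes tested in this fluid contrast, 13.7% were called higher and 26% in either direction. Counts of 1 in a list are near these shares. Within tumor, LNP-CDN raised 2 of 5 monocyte and 1 of 6 neutrophil markers, beside 1.89% of all genes. Limma called 0 of 7 macrophage markers there (2 at an unadjusted p under 0.05), 0 of 5 fibroblast markers (1) and 0 of 2 epithelial markers (0), and T, B and NK cell markers lay under the filter. The part of these shifts in the Ifit differences was not tested.

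The members did not keep fixed proportions. Ifit2 made up 19.2 ± 2.00% of the family's summed FPKM in PBS fluid (mean ± SD, n = 3). Anti-PD-L1 libraries held 41.3 ± 7.57%, LNP-CDN libraries 24.8 ± 1.83% and combination libraries 25.7 ± 1.51%. In tumor the share was 53.0 ± 5.86% under PBS, 50.3 ± 11.4% under anti-PD-L1, 28.3 ± 2.49% under LNP-CDN and 27.5 ± 2.06% under the combination. The mean share of Ifit3 went from 28.5 to 38.7% between PBS and LNP-CDN in fluid and from 20.8 to 35.1% in tumor, where Ifit3 became the highest member. Ifit1 went the other way in fluid, from 36.4 to 18.6%, and lay at 22.5 and 27.6% in tumor. Ifit1bl1 held 7.60 and 10.2% in fluid and 0.911 and 2.73% in tumor.

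**Figure D4:**
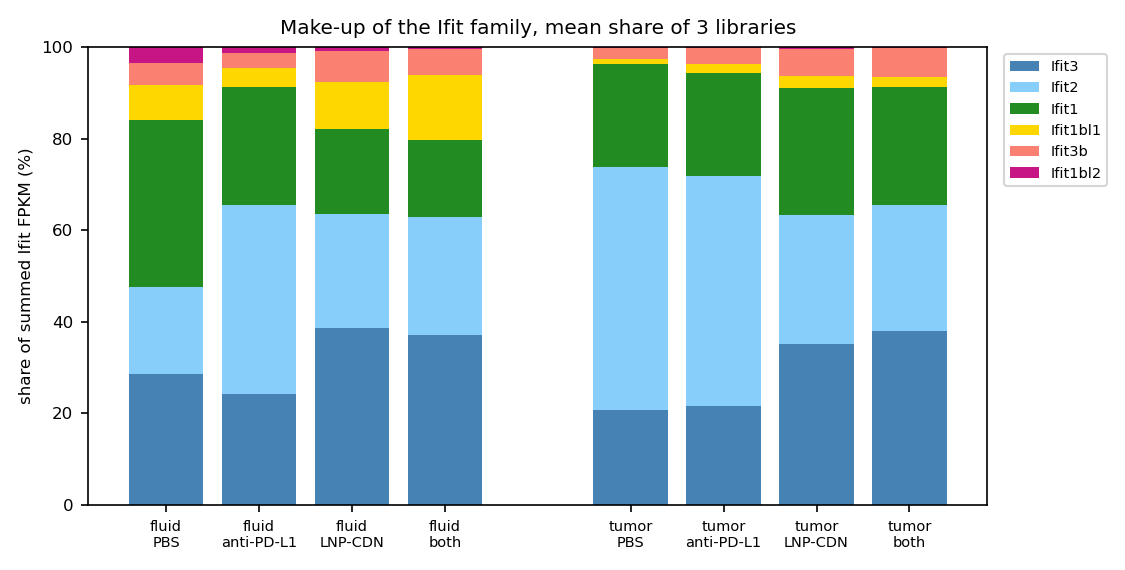
Mean share of each Ifit member in the family's summed FPKM (percent) for the 8 groups, n = 3 libraries each. In tumor the share of Ifit2 is 53.0% with PBS and 28.3% with LNP-CDN, and in fluid the share of Ifit1 is 36.4% and 18.6%.

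These shifts were tested as the log2 ratio of each member to Ifit1 (0.1 FPKM added to both), over 6 libraries with LNP-CDN against 6 without in each tissue, by a two-sided exact permutation test with Benjamini-Hochberg adjustment over 10 tests. In fluid the ratio of Ifit3 to Ifit1 went from -0.21 ± 0.28 to 1.10 ± 0.08 (mean ± SD, n = 6), that of Ifit3b from -2.87 ± 0.13 to -1.54 ± 0.24 and that of Ifit1bl1 from -2.41 ± 0.38 to -0.58 ± 0.51. Each had an exact permutation p = 0.00216, the smallest that 924 arrangements can give, and an adjusted p of 0.00361, so that these 3 members rose more than Ifit1. The Ifit1bl2 ratio fell from -3.76 ± 0.71 to -4.73 ± 0.54 (exact permutation, adjusted p = 0.0433), a call lost with no pseudocount (0.0804). The Ifit2 ratio, -0.11 ± 0.96 without and 0.51 ± 0.12 with LNP-CDN, did not pass (0.139), and without fluid anti-PD-L1 replicate 1 it differed by 0.91 (0.00618). In tumor the Ifit2 ratio fell from 1.19 ± 0.52 to 0.06 ± 0.12, and those of Ifit3 (-0.07 ± 0.14 to 0.44 ± 0.14) and Ifit3b (-2.78 ± 0.39 to -2.12 ± 0.18) rose, each with an exact permutation adjusted p of 0.00361. The tumor ratios of Ifit1bl1 (difference 0.25, adjusted p = 0.407) and Ifit1bl2 (-0.73, 0.0758) did not pass, and the sign of each turned with the pseudocount. With a pseudocount of 1 the tumor Ifit3b difference was 0.003 (0.972).

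**Figure D5:**
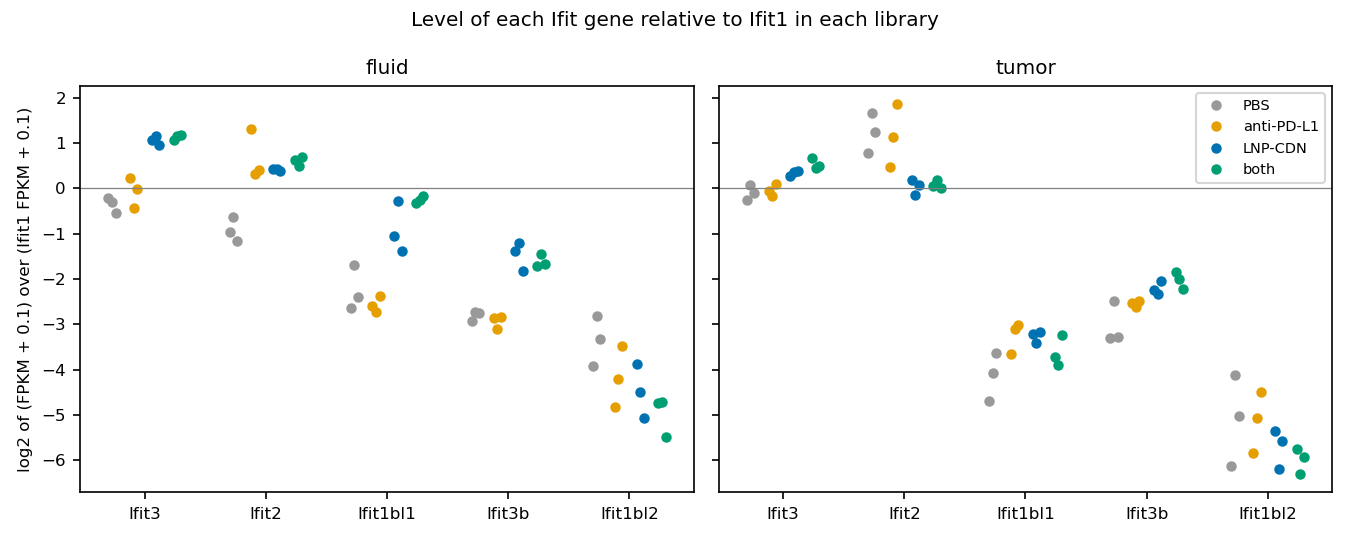
Log2 ratio of each member's FPKM to that of Ifit1 (0.1 added to both) in each of the 24 libraries, by tissue and treatment. Ifit3 lies near 0 without LNP-CDN and above it with LNP-CDN in both tissues, and Ifit2 in tumor moves down towards 0.

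The rest of the pathway was followed in 4 lists. Among 30 other interferon targets, 29 were higher and 0 lower in fluid with LNP-CDN against PBS, with a median log2 difference of 1.72 beside 0.002 over all genes tested. Examples are Ifi44 at 3.57 ± 0.22, Cmpk2, a mitochondrial nucleotide kinase, at 2.75 ± 0.20, Oas3, an oligoadenylate synthetase, at 1.97 ± 0.15 and Samd9l at 1.50 ± 0.11. Of the receptor and signaling list, 8 of 12 were higher and 1 lower (Socs3, a suppressor of cytokine signaling, at -0.33 ± 0.09), including the transcription factor Irf7 at 2.93 ± 0.24, Usp18, which dampens the interferon receptor, at 2.74 ± 0.22, and the transcription factor Stat2 at 1.49 ± 0.17. Of 8 sensing genes, 6 were higher, among them the RNA sensors Ddx58 (1.66 ± 0.11) and Ifih1 (1.50 ± 0.15), and the kinases Ikbke (0.71 ± 0.20) and Tbk1 (0.51 ± 0.11). The share of all genes called higher in this contrast was 13.7%. With the combination against PBS in fluid the counts of higher genes were 29 of 30, 9 of 12 and 4 of 8, beside 15.6% of all genes. Between the combination and LNP-CDN alone limma called 0 genes of these lists in either tissue, as it did over all genes, and 0 of them had an unadjusted p under 0.05.

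With anti-PD-L1 alone in fluid, 4 of 30 other targets were higher than with PBS, beside 5.47% of all genes. These were Cmpk2 at 1.10 ± 0.20, Cxcl10, a chemokine, at 1.09 ± 0.31, Phf11b at 0.78 ± 0.22 and Eif2ak2, the RNA-activated kinase PKR, at 0.45 ± 0.10. Of the signaling list, 3 of 12 were lower, Ifnar1, Irf9 and Socs3, beside 13% of all genes called in either direction. Limma called 0 of 8 sensing genes (1 at an unadjusted p under 0.05). In these fluid libraries the treatment and the high Ddx3y cannot be told apart. In tumor with anti-PD-L1 limma called 0 genes of these lists, with an unadjusted p under 0.05 for 3 of 12 signaling genes and for 0 of the other 2 lists. In tumor with LNP-CDN, 22 of 30 other targets, 3 of 12 signaling genes (Irf7 at 2.20 ± 0.29 and Usp18 at 1.35 ± 0.26 among them) and 2 of 7 sensing genes were higher and 0 were lower, and the median of the other targets was 1.09. With the combination in tumor the counts were again 22, 3 and 2. Of all genes tested in tumor, 1.89% were called higher with LNP-CDN and 0.881% with the combination. Tested as a tissue difference of the LNP-CDN change, 13 of 30 other targets, 1 of 12 signaling and 3 of 8 sensing genes changed less in tumor, beside the 7.4% of all genes above.

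The interferons themselves were hardly measurable. Of 10 ligand genes, 0 were tested, because Ifnb1 in both tissues and Ifng in tumor could not be used and the others lay under the filter or were listed at 0. Ifnl2 and Ifnl3 were listed at 0 in every library, and Ifna1, Ifna2, Ifna4, Ifna5, Ifne and Ifnk reached at most 0.335 FPKM. Ifng, the type II interferon, lay at 0.438 to 1.28 FPKM in fluid with LNP-CDN, 0.445 to 0.648 with the combination, 0.141 to 0.202 with PBS and 0.113 to 0.782 with anti-PD-L1. The listed values of Ifnb1 were no whole numbers of reads at its listed length in 10 of 12 fluid and 12 of 12 tumor libraries, so no value of it is given. The same held for Ifng in 11 of 12 tumor libraries, and its tumor values are left out.

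Across the 24 libraries the members followed each other, in libraries that share tissue and treatment. Pearson's r of log2(FPKM + 1) was 0.992 between Ifit3 and Ifit3b, which may share reads, and 0.991 between Ifit1 and Ifit3, and the lowest value was 0.778 between Ifit2 and Ifit1bl2. The genes outside the family most like its mean profile were Samd9l (r = 0.989), Usp18 (0.984), Mx2 (0.982), Ddx58 (0.976), Tmem171 (0.975) and Ly6i (0.974). Single members had other nearest genes: Usp18 for Ifit1 (0.990) and Ifit3 (0.981), Samd9l for Ifit3b (0.979), Ly6i for Ifit1bl1 (0.988), Dpep2 for Ifit1bl2 (0.972) and Hpgds, a prostaglandin D synthase, for Ifit2 (0.957).

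The nearest tested genes on each side of the cluster were followed as well. Lipa, the lysosomal acid lipase, lies 23220 bases before the cluster, Ch25h, an enzyme that makes a hydroxycholesterol, 75559 bases before it, and the death receptor gene Fas 222924 bases before it. In fluid with LNP-CDN against PBS, Ch25h differed by 1.20 ± 0.34 (limma, adjusted p = 0.0252), Lipa by 1.19 ± 0.26 (0.00827) and Fas by 0.37 (0.124). On the other side Kif20b, a kinesin 272352 bases away, differed by -0.31 (0.254), Mir1950 by -0.73 (0.494) and the serotonin receptor gene Htr7, 1308725 bases away, by -0.998 ± 0.143 (0.000881). With anti-PD-L1 alone in fluid Ch25h was also called higher, at 1.44 (0.0207), as Ifit2 was. In tumor none of the tested neighbours was called with LNP-CDN, and Ch25h was called with the combination (1.07 ± 0.19, adjusted p = 0.0229).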

How the data were processed

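The deposited table holds 1 FPKM value per gene and library, which the authors computed, for 54505 genes in 24 libraries. Poly-A RNA was made into libraries with an unstranded kit, as the labels' protocols describe. Per the submitters' processing notes the tools were STAR, featureCounts, fastp and DESeq2 and the build mm9, with no roles or versions given. Positions are given as GRCm38, since 53474 of the 54383 gene IDs shared with GENCODE M21 have the same coordinates there.

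Read numbers were recovered as FPKM times gene length and 1 factor per library, and 99.92 to 99.97% of them were whole to within 0.01. The 21 genes that did not give whole reads (9 in fluid, 19 in tumor), Ifnb1 among them, were left out, and no Ifit member is one of them. Tests used limma 3.58.1 in R 4.3.3 on log2(FPKM + 1) with a variance trend, over genes whose FPKM was 1 or more in 3 or more libraries. Treatments were compared in 1 fit of 12 libraries per tissue, and tissues in 1 fit of 24. Adjusted p values are two-sided, by the method of Benjamini and Hochberg, over all genes tested, with a threshold of 0.05. The fits were also run on simulated data, and the outcome of those runs is not reported here. Ratios to Ifit1 were tested by exact permutation with scipy 1.17.1 in Python 3.11.15, and tables were made with pandas 2.3.3 and figures with matplotlib 3.10.9.

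Samples were grouped by their titles. Every member is named whatever its result. Each pathway list gives up to 4 genes with the smallest p in fluid LNP-CDN against PBS (1 of them is not reported here), likeness gives the 6 genes nearest the mean profile and 1 per member, and the 3 nearest tested genes on each side of the cluster are named. Other genes were named after their values were seen, among them those called with anti-PD-L1 and Socs3. The members, lists and tests were chosen with earlier results of these data known. Same-numbered libraries of a tissue had correlations of -0.23 to 0.20 in their deviations from group means (5 of 36 over 0.1). Libraries of 1 number and treatment in both tissues had correlations of -0.042 to 0.23 (3 of 12 over 0.1). These correlations cannot decide whether a shared number marks a shared mouse, because low correlations do not exclude it. Ddx3y reached 3.55 FPKM in a PBS tumor library and at most 0.0253 in PBS fluid. That tumor library therefore had no PBS fluid library with a like level of this Y-linked gene. The labels give no link between fluid and tumor libraries, and the fit treated libraries of both tissues as independent. The tissue comparisons rest on that choice. Alternatives were a pseudocount of 0.1, no filter, scaling by median of ratios or by total reads, limma-voom on recovered reads, a replicate block, a fit of only those libraries being compared, and leaving out each library in turn. For the ratios they were a pseudocount of 1, Ifit2 as reference and, added after seeing the data, no pseudocount.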

Additional observations from a re-analysis of the deposited data

Results flagged for a closer look

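Tissue differences in a treatment's change, tested as an interaction in the fit of all 24 libraries with limma, picked out 10 results. For LNP-CDN against PBS, the log2 change in tumor minus that in fluid was -1.61 for Ifit1, -3.92 for Ifit2, -2.58 for Ifit3, -2.40 for Ifit3b, -2.96 for Ifit1bl1 and -1.26 for Ifit1bl2. For the combination against PBS it was -3.64 for Ifit2, -2.03 for Ifit3, -1.72 for Ifit3b and -3.50 for Ifit1bl1. Both sets share the PBS libraries of each tissue. The values are on the log2 scale of FPKM + 1, which understates the change of low genes. Ifit1bl2 entered this fit only through fluid libraries. Limma-voom called 3 of 6 members for LNP-CDN, and Ifit3b, Ifit1bl1 and Ifit1bl2 were not among them. For the combination it called 2.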

How the results depend on the processing

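Of 139 recounts of called members under the other settings, 128 stayed within 1.5 times the reported count and 11 moved, and of 336 recounts without 1 library 312 stayed and 24 moved. Of 769 values of single members under the other settings, 716 kept direction and call, 36 lost and 8 gained the call, and 9 turned sign. Without 1 library the figures were 1795 of 1920, 76, 22 and 27. Where no construction shows it, the cause was not tested. With no filter the count was 0 for anti-PD-L1 in fluid and 2 for the combination against anti-PD-L1 in tumor, and with only the libraries compared, which leaves fewer samples, it was 0 for both and 1 for tumor against fluid under anti-PD-L1. Scaling by total reads gave 3 for tumor against fluid with PBS and 2 with anti-PD-L1. Limma-voom gave 2 for the latter, 3 for the tissue difference of the LNP-CDN change and 2 for that of the combination. With Ifit2 as the reference 0 fluid ratios passed. A replicate block left 3 ratios in fluid and 3 in tumor past the threshold, 6 members for LNP-CDN in fluid and 3 for the combination against anti-PD-L1 in tumor, and moved no count by over 1.5 times.

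Signs turned for the Ifit3b change with anti-PD-L1 in fluid (-0.0025 with a pseudocount of 0.1, -0.0095 with total reads, -0.056 with limma-voom), for the Ifit1 tissue difference of the anti-PD-L1 change (0.011 with median of ratios, 0.013 with total reads, 0.11 with limma-voom), for Ifit1bl2 in that of the combination (0.44 with limma-voom), and for the tumor ratios of Ifit1bl1 (-0.62, pseudocount 1) and Ifit1bl2 (0.20, no pseudocount).

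Without 1 library the counts ran from 0 to 1 for anti-PD-L1 in fluid and for its tissue difference, 0 to 4 for LNP-CDN, 1 to 5 for the combination against PBS and 0 to 5 against anti-PD-L1 in tumor, 3 to 6 for tumor against fluid with PBS and 1 to 5 with anti-PD-L1. The ratio counts ran from 3 to 5 in fluid and 3 to 4 in tumor. Uncalled differences turned sign in 15 cases. For anti-PD-L1 in fluid they ran from -0.20 to 0.31 for Ifit1, -0.37 to 0.017 for Ifit1bl1, -0.074 to 0.67 for Ifit3 and -0.23 to 0.16 for Ifit3b. In tumor they ran from -0.35 to 0.54 for Ifit1, -0.14 to 0.17 for Ifit2 and -0.30 to 0.52 for Ifit3, and between the tissues from -0.94 to 0.019 for Ifit2. The tissue difference of that change ran from -0.47 to 0.42 for Ifit1 and -0.68 to 0.23 for Ifit3. For the combination against LNP-CDN they ran in fluid from -0.32 to 0.12 for Ifit1, -0.12 to 0.31 for Ifit2, -0.24 to 0.25 for Ifit3 and -0.52 to 0.11 for Ifit3b, and in tumor from -0.15 to 0.047 for Ifit1bl1. Depth limits Ifit1bl2 in tumor, with 2 to 27 reads per library.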
